A study of Daphnia magna with 9 samples.

Results

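The data below concern 3 cathepsin genes of the water flea Daphnia magna, chosen by their gene IDs because their RNA levels had been seen to move in opposite directions in these libraries. They are cathepsin L1 (Dapma7bEVm023392t1), putative cathepsin L (Dapma7bEVm010071t1) and cathepsin L (Dapma7bEVm003341t1). They make up 3 of the 17 gene IDs whose deposited name contains cathepsin, among 42462 gene IDs in all, and each of the 3 IDs was carried by 1 feature of the count table. RNA was sequenced from whole bodies of females on day 12, at their 2nd clutch and after removal of the eggs, with 5 daphnids per library. The 3 groups, of 3 libraries each, were the starved mutant (DNMT3.1 mutant, 8-fold less Chlorella algae), the starved wild type (NIES strain, the same reduced ration) and the nutrient-rich mutant (DNMT3.1 mutant, full ration). The mutant was 1 CRISPR/Cas line derived from a single founder, with frameshift mutations in both alleles of DNMT3.1. This gene belongs to the DNA methyltransferase 3 family. According to the paper, it lacks most of the methyltransferase motifs found in catalytically active members. With 1 line, the genotype cannot be told apart from any other difference between that line and the NIES strain. A nutrient-rich wild type was not analysed here.

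Cathepsins L and B belong to the papain family of cysteine peptidases. They are made as inactive precursors, are activated in the acid interior of the lysosome and degrade proteins there. In crustaceans such as shrimp, cathepsin L-like enzymes are also secreted by the digestive gland and take part in digestion of food. Cystatins are small proteins that bind papain-family peptidases and block them.

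The read total per library was 9613033 to 11806614 in the starved mutant, 9270993 to 10106055 in the starved wild type and 10260014 to 10884458 in the nutrient-rich mutant. Levels are given as CPM, counts divided by library size after TMM scaling, which equalises most genes between libraries. The TMM factors were 1.10 to 1.13, 1.01 to 1.06 and 0.749 to 0.928 in these groups, and the lowest, nutrient-rich mutant replicate 2, stood apart. DNMT3.1 itself was read at 40.0 to 87.6 CPM in the starved mutant, against 79.2 to 111 CPM in the starved wild type, and at 4.40 to 10.8 CPM in the nutrient-rich mutant. A count over the whole gene does not show whether a transcript carries the frameshift.

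Cathepsin L1 (Dapma7bEVm023392t1) had no read in any starved mutant library, while it was read in all 6 libraries of the other groups. Its counts were 0, 0 and 0 in starved mutant replicates 1 to 3, against 127, 117 and 171 in the starved wild type, or 0 CPM against 13.0, 11.7 and 16.3 CPM. The nutrient-rich mutant gave 55, 21 and 64 reads, or 5.46, 2.64 and 6.74 CPM. All starved mutant libraries thus lay below all libraries of the other groups, and the starved wild type lay above the nutrient-rich mutant without overlap. Against a floor of 3 counts over the starved mutant group (0.0852 CPM), cathepsin L1 was at least 160-fold lower than the starved wild type level (13.6 ± 2.36 CPM, SD, n = 3). Against the nutrient-rich mutant (4.95 ± 2.10 CPM, SD, n = 3) it was at least 58.1-fold lower. The starved wild type exceeded the nutrient-rich mutant by 2.76-fold, groups that differ in both genotype and food.

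Because the gene was chosen on these contrasts, the values are descriptions and carry no test. For scale, the libraries of both groups did not overlap for 41.2% of the 18675 features tested when starved mutant and starved wild type were set side by side. The share was 40.3% for starved mutant and nutrient-rich mutant, and 39.5% for starved wild type and nutrient-rich mutant. Cathepsin L1 was 1 of 8 features of the whole table with 0 counts in the starved mutant and a mean of at least 10 CPM in the starved wild type. That limit was set after the values were seen, on a contrast that the gene was chosen on. The count is over the whole table, so it cannot be set beside the shares of tested features above. Of the 8, 4 had reads in each nutrient-rich mutant library, cathepsin L1 among them, and 1 had none there. The reverse, 0 counts in the starved wild type and at least 10 CPM on average in the starved mutant, held for 4 features.

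Putative cathepsin L (Dapma7bEVm010071t1) followed the same order of groups, with a remainder of reads in the starved mutant. It had 32, 1 and 13 reads in starved mutant replicates 1 to 3 (3.00, 0.077 and 1.12 CPM), against 172, 169 and 188 reads in the starved wild type (17.6, 16.9 and 17.9 CPM). The nutrient-rich mutant gave 112, 65 and 134 reads (11.1, 8.17 and 14.1 CPM). The groups did not overlap in any pairing, and the starved mutant libraries spread far wider relative to their mean (coefficient of variation 106%) than the starved wild type libraries did (2.90%). The means were 1.40 ± 1.48 CPM in the starved mutant and 17.4 ± 0.505 CPM in the starved wild type (SD, n = 3 each), a 12.5-fold lower level. Against 11.1 ± 2.97 CPM in the nutrient-rich mutant (SD, n = 3) the level was 7.95-fold lower.

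The fitted log2 fold change of putative cathepsin L was −3.67 (SE 0.70) over the starved wild type and −3.02 (SE 0.69) over the nutrient-rich mutant. Its size rested on single starved mutant libraries: without starved mutant replicate 1 the 2 values were −4.88 and −4.24, and without starved mutant replicate 2 they were −3.08 and −2.44. Leaving out nutrient-rich mutant replicate 2, the library that stood apart, gave −3.68 and −3.22. No choice of library turned the direction.

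Cathepsin L (Dapma7bEVm003341t1) was the abundant member of the 3 and went the other way in the starved comparison. Its counts were 1078, 1472 and 1250 in the starved mutant, against 622, 770 and 668 in the starved wild type, or 101, 113 and 108 CPM against 63.5, 77.0 and 63.5 CPM. The starved mutant libraries lay above all starved wild type libraries. The means were 107 ± 6.12 CPM in the starved mutant and 68.0 ± 7.75 CPM in the starved wild type (SD, n = 3 each), a ratio of 1.58 and a fitted log2 fold change of 0.66 (SE 0.13). This is a small change beside those of the other members: 9.31% of all tested features had a higher log2 fold change in this comparison, whereas 1.32% had a lower one than putative cathepsin L.

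Within the mutant, the size of the difference in cathepsin L between the food conditions, and the overlap of the libraries, depended on the scaling. The mean was higher in the starved mutant in both CPM and RPKM. Cathepsin L had 1062, 772 and 876 reads in the nutrient-rich mutant, or 105, 97.1 and 92.2 CPM (98.2 ± 6.69, SD, n = 3), which overlapped with the starved mutant. The fitted log2 fold change of the starved mutant over the nutrient-rich mutant was 0.13 (SE 0.13) with TMM and 0.49 with library totals in place of TMM. Library totals moved the median of all tested features by 0.36 in this comparison (0.30, in place of −0.07 with TMM). Relative to that median, cathepsin L stood at 0.20 with TMM and at 0.19 with library totals, so the shift was common to most features. In the deposited RPKM (reads per kilobase of feature and per library total, not TMM-scaled) cathepsin L read 84.9, 94.3 and 91.0 in the starved mutant, against 73.5, 51.4 and 63.3 in the nutrient-rich mutant, without overlap. The starved wild type, at 50.0, 58.7 and 49.5 RPKM, overlapped with the nutrient-rich mutant on this scale, while in CPM it lay below it. For cathepsin L1 and putative cathepsin L the groups stood in the same order, without overlap, in CPM and RPKM.

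**Figure D1:**
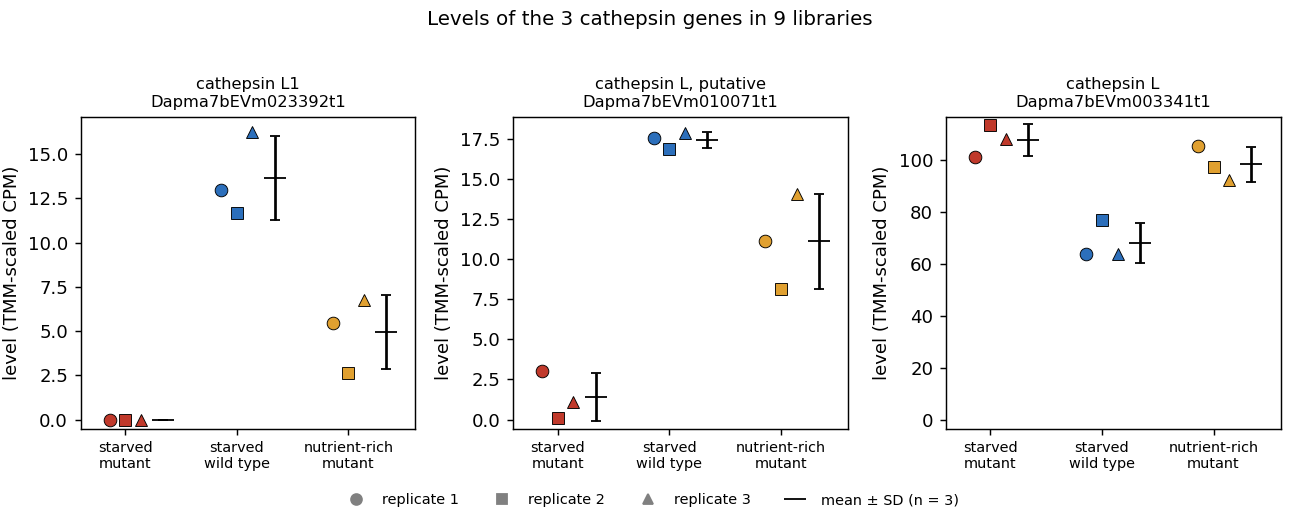
Level in TMM-scaled CPM (vertical axis, linear) of the 3 cathepsin genes in the starved mutant, starved wild type and nutrient-rich mutant, 1 marker per library and a bar for the mean ± SD (n = 3). Cathepsin L1 is at 0 in all starved mutant libraries, putative cathepsin L at 0.077 to 3.00 CPM there, and cathepsin L at 101 to 113 CPM, above the 63.5 to 77.0 CPM of the starved wild type.

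Per unit of length, the genes are far apart in level. Averaged over the 9 libraries, cathepsin L reached 68.5 RPKM and ranked 4th of the 17 cathepsin-named genes, putative cathepsin L reached 6.63 RPKM and ranked 11th, and cathepsin L1 reached 4.24 RPKM and ranked 13th. The ratio of cathepsin L to putative cathepsin L in RPKM was 39.1, 1610 and 113 in starved mutant replicates 1 to 3, against 3.99, 4.97 and 3.90 in the starved wild type. The nutrient-rich mutant gave ratios of 10.5, 13.0 and 7.35, between those of the other groups and without overlap with either. Such a ratio within a library does not depend on how libraries are scaled. The genes were chosen for opposite changes between these groups, so ratios that differ between groups follow from that choice. They do not show which of the genes changed. The ratio of 1610 rests on 1 read of putative cathepsin L. Cathepsin L1 made up 0% of the reads of cathepsin L1 and putative cathepsin L together in each starved mutant library, against 42.5%, 40.9% and 47.6% in the starved wild type, and 32.9%, 24.4% and 32.3% in the nutrient-rich mutant.

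Over the 9 libraries, log2 CPM of cathepsin L1 and putative cathepsin L correlated at r = 0.90 (Spearman rho = 0.98). Cathepsin L correlated with cathepsin L1 at r = −0.77 (rho = −0.92) and with putative cathepsin L at r = −0.71 (rho = −0.95). These are descriptions: the 9 points share 3 groups that the genes were chosen on.

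The low level of both genes in the starved mutant was accompanied by lower levels of gut, yolk and blood cell markers. Whole-body RNA cannot separate fewer cells of a type from less RNA per cell. The summed level of 129 gut marker genes (trypsins, chymotrypsins, carboxypeptidases A and B, alpha-amylases) was 5731 to 10958 CPM in the starved mutant, against 12914 to 22164 CPM in the starved wild type, and 16022 to 21779 CPM in the nutrient-rich mutant. Of the 129, 8 were at 0 counts in the starved mutant, 11 in the starved wild type and 13 in the nutrient-rich mutant. The starved mutant's mean sum was 2.10-fold below the starved wild type and 2.37-fold below the nutrient-rich mutant, against at least 160-fold and at least 58.1-fold for cathepsin L1. The vitellogenins, the yolk proteins (18 genes, none at 0 in any group), summed to 15792 to 17432 CPM in the starved mutant, against 36067 to 46909 CPM in the starved wild type, and 73056 to 96048 CPM in the nutrient-rich mutant. The haemocyte markers (12 genes, none at 0 in any group) summed to 695 to 899 CPM in the starved mutant, against 1147 to 1333 CPM in the starved wild type, and 1067 to 1188 CPM in the nutrient-rich mutant. A gene was called at an adjusted p (edgeR quasi-likelihood test, Benjamini-Hochberg) under 0.05 with a change of at least 1.5-fold. For scale, in the starved comparison 2.92% of all features were called higher and 4.24% lower, and the food comparison within the mutant had 11.1% higher and 12% lower. In the starved comparison the summed levels of germ line and of eye and neuron markers, like cathepsin L, did not overlap between the groups and were above those of the starved wild type. None of their 4 and 45 tested genes was called higher there by edgeR (1 and 3 had an unadjusted p under 0.05), and 1 of the 45 was called lower. The germ line list (5 genes, none at 0 in any group) summed to 514 to 600 CPM in the starved mutant, against 394 to 417 CPM in the starved wild type, and 441 to 909 CPM in the nutrient-rich mutant. The eye and neuron list (65 genes, of which 7, 7 and 8 were at 0 in these groups) summed to 2275 to 2509 CPM in the starved mutant, against 2021 to 2192 CPM in the starved wild type, and 689 to 1264 CPM in the nutrient-rich mutant. Against the nutrient-rich mutant 22 of its 45 tested genes were called higher and 0 lower, whereas cathepsin L overlapped between these groups. Epidermis genes were called in both directions, while their sums overlapped between groups. Of 288 epidermis genes 101 were tested, with 32 called higher and 12 lower against the starved wild type (median log2 fold change 0.79) and 40 higher and 16 lower against the nutrient-rich mutant (median 1.33). Their sum was 6449 to 6818 CPM in the starved mutant, against 6668 to 6888 CPM in the starved wild type, and 6145 to 10419 CPM in the nutrient-rich mutant, and 92, 132 and 131 of the genes were at 0 in these groups. The muscle markers (23 genes, of which 4, 4 and 5 were at 0) summed to 9747 to 10390 CPM in the starved mutant, against 9166 to 10222 CPM in the starved wild type, and 5752 to 8310 CPM in the nutrient-rich mutant. The part of these cell types in the values of the cathepsin genes was not tested.

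The other cathepsin-named genes fell or did not pass the test in the starved comparison, and none was called higher by edgeR. Cathepsin B Dapma7bEVm007809t1 was not called, though its starved mutant libraries all lay above the starved wild type (log2 fold change 0.68, edgeR adjusted p = 0.52). Of the 14 others, 11 had enough reads to be tested: 0 were called higher in the starved mutant (2.92% of all features were), 4 were called lower (4.24% of all features were) and 7 were not called. At an unadjusted p under 0.05 there were 5 such genes, all of them among those named cathepsin L or L2. DESeq2 and limma-voom also called none of them higher. The median log2 fold change of the 11 was −0.47, beside −0.00 for all features. All 4 called genes carry the name cathepsin L or L2. Of the 17 genes on the list, 12 have a name with cathepsin L, L1 or L2, the rest being named cathepsin B (2), Z (2) or O (1). The list was written with earlier results of these libraries known.

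Cathepsin L2 (Dapma7bEVm001332t1), 2nd in level among the cathepsins at 328 RPKM, held 158 ± 22.5 CPM in the starved mutant and 603 ± 121 CPM in the starved wild type (SD, n = 3 each), a log2 fold change of −1.93 (edgeR adjusted p = 0.00103). A less abundant cathepsin L2 (Dapma7bEVm010066t1) read 3.56, 2.08 and 2.94 CPM in the starved mutant, against 11.8, 18.0 and 12.6 CPM in the starved wild type, and fell by 2.30 on the log2 scale (edgeR adjusted p = 0.00170). A further gene named putative cathepsin L (Dapma7bEVm011055t1) read 4.97, 2.31 and 3.20 CPM in the starved mutant, against 16.2, 14.6 and 15.1 CPM in the starved wild type. It fell by 2.14 on the log2 scale (edgeR adjusted p = 0.0157). In these 3 genes the starved mutant libraries did not overlap with those of either other group. Another cathepsin L gene, Dapma7bEVm011016t1, fell by 0.91 on the log2 scale to 161 ± 24.5 CPM in the starved mutant, against 302 ± 5.28 CPM in the starved wild type (edgeR adjusted p = 0.0389, SD, n = 3 each).

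The calls on these 4 genes were not equally firm. Both cathepsin L2 genes were called under all 15 alternative settings of the test. Dapma7bEVm011055t1 was called under 11 of 15 (adjusted p 3.0e-05 to 0.0829) and Dapma7bEVm011016t1 under 8 of 15 (adjusted p 0.00284 to 0.162). The count of 4 fell to 2 without starved wild type replicate 1 or 2, or without starved mutant replicate 2 or 3.

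The remaining 3 of the 5 most abundant cathepsins differed in pattern. Cathepsin L Dapma7bEVm001264t1, the highest at 614 RPKM, was not called in the starved comparison, with 912 ± 58.3 CPM in the starved mutant and 1169 ± 49.1 CPM in the starved wild type (log2 fold change −0.36, edgeR adjusted p = 0.43). Cathepsin B Dapma7bEVm009843t1, an enzyme that also trims peptides from their C-terminal end, held 243 ± 9.84 CPM in the starved mutant and 256 ± 8.68 CPM in the starved wild type (log2 fold change −0.08, edgeR adjusted p = 0.824). The third is cathepsin L Dapma7bEVm003341t1, the chosen gene with the higher level in the starved mutant. The summed level of all 17 genes was 1583 to 1733 CPM in the starved mutant, against 2375 to 2736 CPM in the starved wild type, without overlap. In the nutrient-rich mutant it was 1682 to 2342 CPM, which overlapped with the starved mutant.

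Set against the nutrient-rich mutant, the starved mutant showed 1 of the 11 other cathepsins called higher (11.1% of all features were) and 3 called lower (12% of all features were), and 7 were not called. The median log2 fold change was −0.17, beside −0.07 for all features. This comparison uses the same starved mutant libraries as the one above, so the genes that fell in both are not independent evidence. The 3 lower genes were cathepsin L2 Dapma7bEVm001332t1 (log2 fold change −1.92, edgeR adjusted p = 0.00025), cathepsin L2 Dapma7bEVm010066t1 (−2.17, adjusted p = 0.000673) and putative cathepsin L Dapma7bEVm011055t1 (−1.81, adjusted p = 0.0115). The gene that rose was a cathepsin B, Dapma7bEVm007809t1, with 7.41, 9.93 and 6.99 CPM in the starved mutant, against 2.28, 0.25 and 2.32 CPM in the nutrient-rich mutant. The log2 fold change of this gene was 2.29 (SE 0.53, edgeR adjusted p = 0.0124), and it was called under all 15 alternatives. In the starved wild type it read 4.90, 5.70 and 4.57 CPM, and the starved comparison did not pass the test (log2 fold change 0.68, adjusted p = 0.52). With library totals, cathepsin B Dapma7bEVm009843t1 was also called higher in this comparison (log2 fold change 0.61, edgeR adjusted p = 0.0353).

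Over all features, the food comparison within the mutant gave 2078 higher and 2241 lower calls with TMM, and 3446 higher and 1138 lower with library totals. In the starved comparison the split was 546 higher and 791 lower with TMM, and 626 higher and 589 lower with library totals. The directions of cathepsin L1, putative cathepsin L and the 3 other cathepsins called lower in both comparisons were the same under either scaling.

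**Figure D2:**
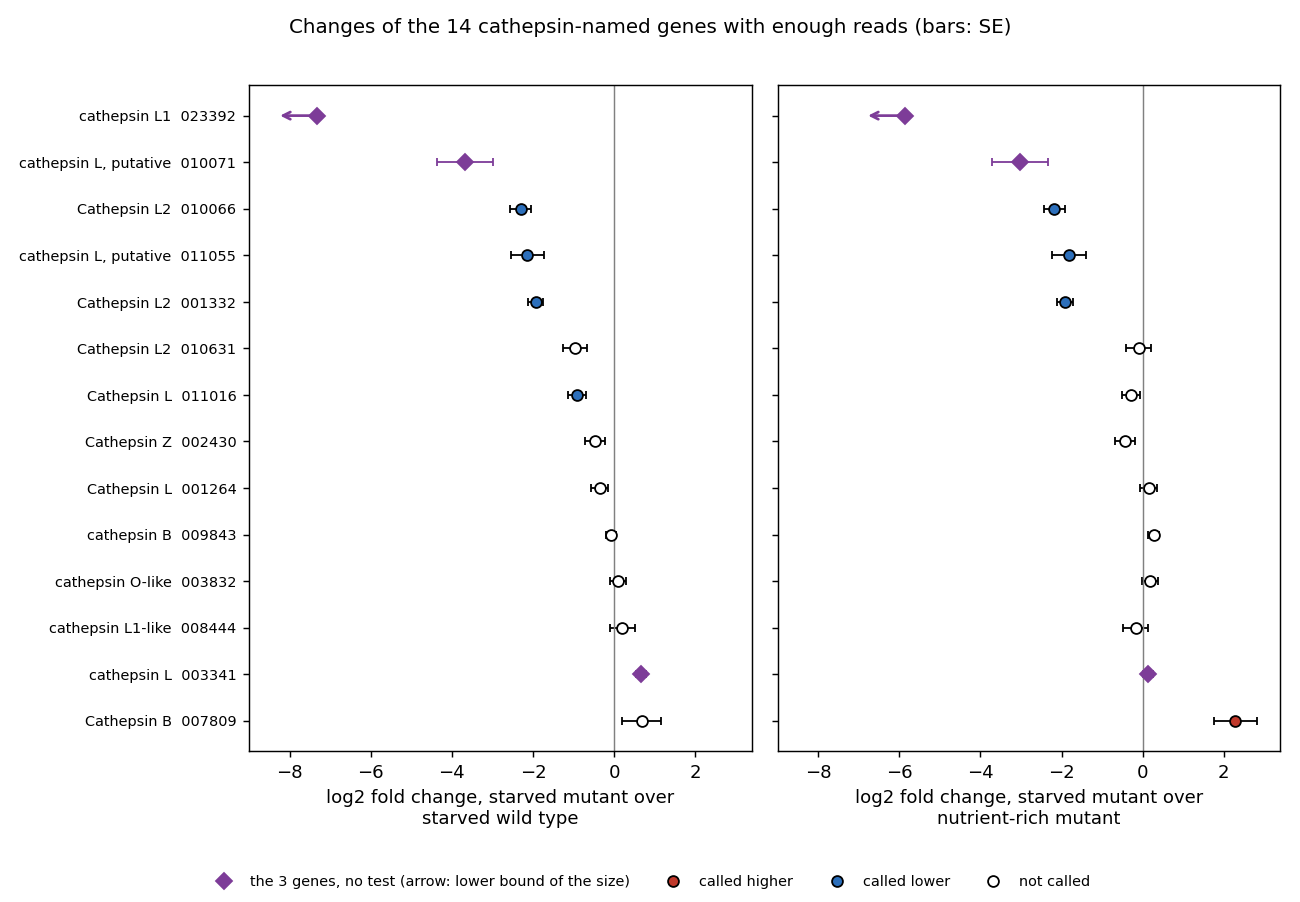
Log2 fold change (horizontal axes, bars ± SE) of the 14 cathepsin-named genes with enough reads, starved mutant over starved wild type on the left and over nutrient-rich mutant on the right, with the digits of the gene ID beside each name. Diamonds are the 3 chosen genes, which carry no test; the arrow marks cathepsin L1 at its bound of at least 160-fold and at least 58.1-fold lower. Filled circles passed the test, 4 lower on the left, 3 lower and 1 higher on the right.

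Among the cystatins, which inhibit enzymes of this family, some rose in the starved mutant. Of 16 cystatin-named genes 14 were tested. In the starved mutant 3 rose (2.92% of all features did) and 0 fell (4.24% of all features did) against the starved wild type. An unadjusted p under 0.05 (edgeR) was reached by 8, as by 3649 of the 18675 features tested. Of the 8, Dapma7bEVm001654t1, Dapma7bEVm001908t1, Dapma7bEVm023288t1 and Dapma7bEVm027621t1 were lower in the starved mutant and the rest higher. The list's median log2 fold change was 0.01, beside −0.00 for all features. The 0 depended on the method and on the libraries: DESeq2 called 1 of the 14 lower and limma-voom 0, and edgeR called 3 lower without nutrient-rich mutant replicate 2, 3 with only the 6 libraries compared and 1 without nutrient-rich mutant replicate 1. Against the nutrient-rich mutant 6 rose (11.1% of all features did) and 3 fell (12% of all features did), with a median of 0.11, beside −0.07 for all features. Putative cystatin Dapma7bEVm002407t1 read 30.7, 50.6 and 39.0 CPM in the starved mutant, against 5.31, 3.90 and 6.47 CPM in the starved wild type, and against 3.28, 3.65 and 3.79 CPM in the nutrient-rich mutant. All starved mutant libraries lay above the other 6, with log2 fold changes of 2.94 (edgeR adjusted p = 0.0006) and 3.49 (adjusted p = 7.5e-05). It was called under all 15 alternatives in both comparisons.

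The cystatin-like gene Dapma7bEVm018444t1 read 74.8, 132 and 110 CPM in the starved mutant, against 38.8, 34.7 and 32.0 CPM in the starved wild type, and against 16.5, 8.30 and 16.2 CPM in the nutrient-rich mutant. It rose in both comparisons, by log2 fold changes of 1.59 (edgeR adjusted p = 0.0111) and 2.94 (adjusted p = 0.000297), though the first call was lost without starved wild type replicate 2 or 3, or without starved mutant replicate 3 (adjusted p 0.0523 to 0.0595). The third gene that rose in the starved comparison was Dapma7bEVm007573t1, named here after its value was seen (log2 fold change 0.81, edgeR adjusted p = 0.0264, called under 8 of 15 alternatives). The count of 3 became 1 without starved wild type replicate 2 or 3 or starved mutant replicate 3, and 5 without nutrient-rich mutant replicate 2. Putative cystatin Dapma7bEVm022885t1 passed the test against the nutrient-rich mutant, with 97.3 ± 25.6 CPM in the starved mutant and 10.2 ± 8.07 CPM in the nutrient-rich mutant (log2 fold change 3.24, edgeR adjusted p = 0.00832). Against 29.3 ± 5.75 CPM in the starved wild type, the log2 fold change was 1.73 (adjusted p = 0.16), and the difference between the comparisons was not tested. Putative cystatin Dapma7bEVm027621t1 fell to 37.4 ± 0.195 CPM in the starved mutant, against 129 ± 41.6 CPM in the nutrient-rich mutant (log2 fold change −1.79, edgeR adjusted p = 0.000761, SD, n = 3 each).

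**Figure D3:**
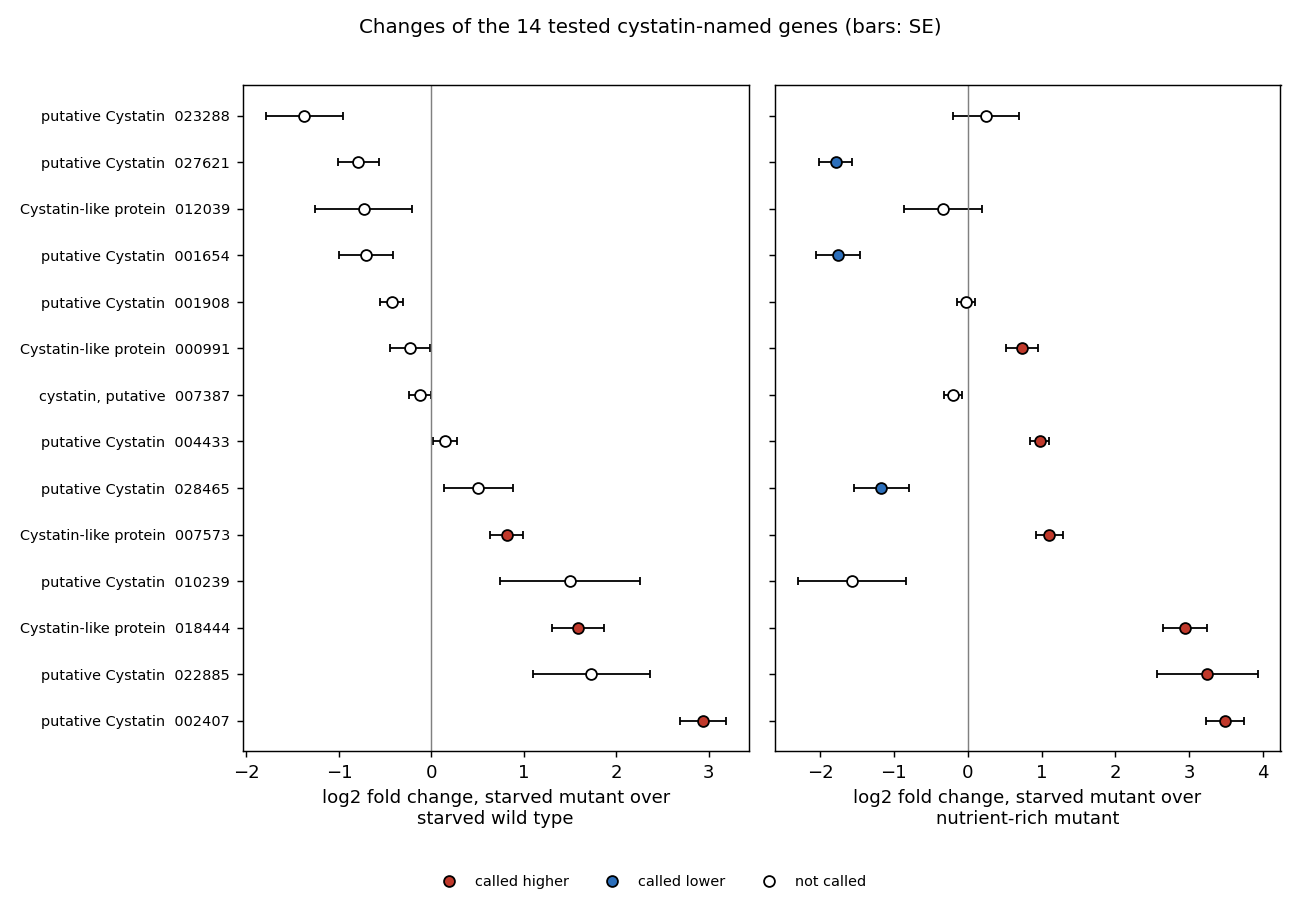
Log2 fold change (horizontal axes, bars ± SE) of the 14 tested cystatin-named genes, starved mutant over starved wild type on the left and over nutrient-rich mutant on the right. Filled circles passed the test: 3 higher on the left, 6 higher and 3 lower on the right, the most raised being putative cystatin Dapma7bEVm002407t1 in both panels.

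Among other lysosomal genes none was called by edgeR in the starved comparison, though the peptidases leaned towards lower levels in the starved mutant. Of 14 other lysosomal and papain-family peptidases 12 were tested, and 0 were called in either direction against the starved wild type (2.92% of all features were called higher and 4.24% lower). Their median log2 fold change was −0.36. An unadjusted p under 0.05 (edgeR) was reached by 6 of them, all lower in the starved mutant. Of the 18675 features tested, 3649 reached it, in either direction. DESeq2 called 1 of them lower, and limma-voom called 0. Within the mutant, against the full ration, 1 was called higher and 3 lower (11.1% and 12% of all features were). The higher one was a lysosomal aspartic protease, Dapma7bEVm000254t1, of the cathepsin D family of enzymes, at 34.2 ± 19.3 CPM in starved mutants and 7.98 ± 3.13 CPM in nutrient-rich mutants (log2 fold change 2.09, edgeR adjusted p = 0.0141, SD, n = 3 each). It read 85.9 ± 31.2 CPM in the starved wild type, above the starved mutant libraries, but that difference was not called (log2 fold change −1.33, adjusted p = 0.139). The lower ones were the lysosomal aspartic protease Dapma7bEVm000952t1 (−1.74, edgeR adjusted p = 0.0198) and 2 genes for dipeptidyl peptidase 1, the enzyme also known as cathepsin C, Dapma7bEVm003252t1 (−0.62, adjusted p = 0.0206) and Dapma7bEVm001581t1 (−2.85, adjusted p = 0.0148). The calls on Dapma7bEVm000952t1 and Dapma7bEVm003252t1 were lost with library totals (adjusted p 0.0544 and 0.372). Dapma7bEVm001581t1 had few reads, 6 in the starved mutant group against 35 in the nutrient-rich mutant group, and was called under 11 of 14 alternatives (adjusted p 0.00428 to 0.0788).

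Of 23 genes for lysosomal acidification, sorting and membrane, 22 were tested. None was called against the starved wild type (2.92% of all features were called higher and 4.24% lower), with 3 at an unadjusted p under 0.05 and a median of −0.06, while DESeq2 called 2 lower and limma-voom 1. Against the nutrient-rich mutant 11 were called lower and 1 higher (12% and 11.1% of all features were), the median was −0.58, and with library totals the lower calls numbered 2. The trypsins and chymotrypsins, serine peptidases of the gut lumen, had 1 of 62 tested called higher and 7 lower against the starved wild type, where 2.92% and 4.24% of all features were, with a median of −0.87. Set against the nutrient-rich mutant, 4 were called higher and 20 lower, where 11.1% and 12% of all features were, with a median of −0.51. The 7 lower calls were 2 with library totals and 23 with DESeq2, so their number depended on the method.

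The files place each gene on a scaffold, without coordinates that were used here. Cathepsin L1 and putative cathepsin L lie on the same scaffold, sc01361, together with putative cathepsin L Dapma7bEVm011055t1, and these 3 are the cathepsin-named genes among its 1341 genes. Cathepsin L Dapma7bEVm003341t1 is the single cathepsin-named gene among 1294 on scaffold sc00024, and 6 cathepsin-named genes lie among 1235 on sc01581. The sum of those 6 was also low in the starved mutant, at 184 to 206 CPM. It was 555 to 812 CPM in the starved wild type and 577 to 710 CPM in the nutrient-rich mutant. Most of that sum came from cathepsin L2 Dapma7bEVm001332t1, and the called cathepsin L2 Dapma7bEVm010066t1 lies there too. All 3 cathepsins on sc01361 were low in the starved mutant: their sum was 2.39 to 7.97 CPM there, against 43.2 to 49.3 CPM in the starved wild type, and 16.3 to 35.9 CPM in the nutrient-rich mutant. Cathepsin L1 and putative cathepsin L Dapma7bEVm010071t1 were chosen for their changes between these groups. Only Dapma7bEVm011055t1 was not among the chosen genes, so the sum mostly repeats that choice. Of 640 genes tested on that scaffold that are not named cathepsin, 12 were called higher (2.92% of all features were) and 31 lower (4.24% of all features were) against the starved wild type. Their median log2 fold change was −0.06, beside −0.00 for all features. Whether the 3 genes are near copies whose reads could be assigned to one another was not tested, since no sequence of them was used here.

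The deposited gene ontology terms do not set the members apart: all 3 carry cysteine-type endopeptidase activity, lysosome and extracellular space. The first of these terms was given to 46 gene IDs, among them 13 of the 17 cathepsin-named genes. The read count per RPKM, which roughly follows feature length, was 1.05 times that of cathepsin L for cathepsin L1 and 1.07 times for putative cathepsin L. By this measure the 3 features are of similar length.

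Across the 9 libraries, the named genes whose log2 CPM followed cathepsin L1 most closely were 2 uncharacterized proteins on scaffold sc02581, Dapma7bEVm018644t1 (r = 0.990) and Dapma7bEVm000886t1 (r = 0.987), protein grainyhead Dapma7bEVm018464t1, a carboxypeptidase M-like gene and a fatty acid hydroxylase domain gene. Grainyhead is a transcription factor of the epidermis, known in flies for its part in cuticle formation. It moved far less than cathepsin L1, with 26.4 CPM in the starved mutant, 45.1 CPM in the starved wild type and 39.4 CPM in the nutrient-rich mutant. The fatty acid hydroxylase domain gene had 4, 47 and 24 reads in these groups. A high r thus does not mean a change of like size. Uncharacterized gene Dapma7bEVm018644t1 also had 0 reads in the starved mutant, against 185 in the starved wild type, and 63 in the nutrient-rich mutant. Of all tested features the closest was the unnamed gene Dapma7bEVm003799t1 (r = 0.993), with 3, 7 and 6 reads in the starved mutant, against 290, 247 and 358 in the starved wild type, and 131, 82 and 221 in the nutrient-rich mutant. In all, 287 tested features reached r above 0.9 with cathepsin L1.

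Putative cathepsin L was followed most closely by cuticle protein 6 (Dapma7bEVm003667t1, r = 0.996, rho = 0.983), a structural protein of the exoskeleton, which was also the closest of all features. Cuticle protein 6 read 28.7, 5.39 and 13.9 CPM in the starved mutant, against 104, 107 and 112 CPM in the starved wild type, and 75.8, 75.3 and 100.4 CPM in the nutrient-rich mutant. Replicate 2 was the lowest of the starved mutant libraries for both genes. The other 4 named genes were uncharacterized proteins, of which 3 lie on scaffold sc02850, and 390 features reached r above 0.9. The epidermis list, which holds the cuticle proteins, more often went the other way than cuticle protein 6. Of its 101 tested genes 32 were called higher and 12 lower against the starved wild type (2.92% and 4.24% of all features were). Against the nutrient-rich mutant 40 were called higher and 16 lower (11.1% and 12% of all features were).

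Cathepsin L had fewer close companions: 19 features reached r above 0.9. The closest was an alpha-carbonic anhydrase gene (Dapma7bEVm029200t1, r = 0.966), which is on scaffold sc01361, as is cathepsin L1. It had 56, 164 and 80 reads in the starved mutant, against 6, 6 and 2 in the starved wild type, and 62, 46 and 42 in the nutrient-rich mutant. The other 4 were a C1q and tumor necrosis factor-related gene, a group 3 secretory phospholipase A2 gene, the RNA exosome component RRP4 and a cysteine-rich hydrophobic domain gene. RRP4 (Dapma7bEVm005705t1) had 556 reads in the starved mutant, against 0 in the starved wild type, and 333 in the nutrient-rich mutant. With 3 groups of 3 libraries, a gene can score high on this measure merely because its groups stand in the same order.

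**Figure D4:**
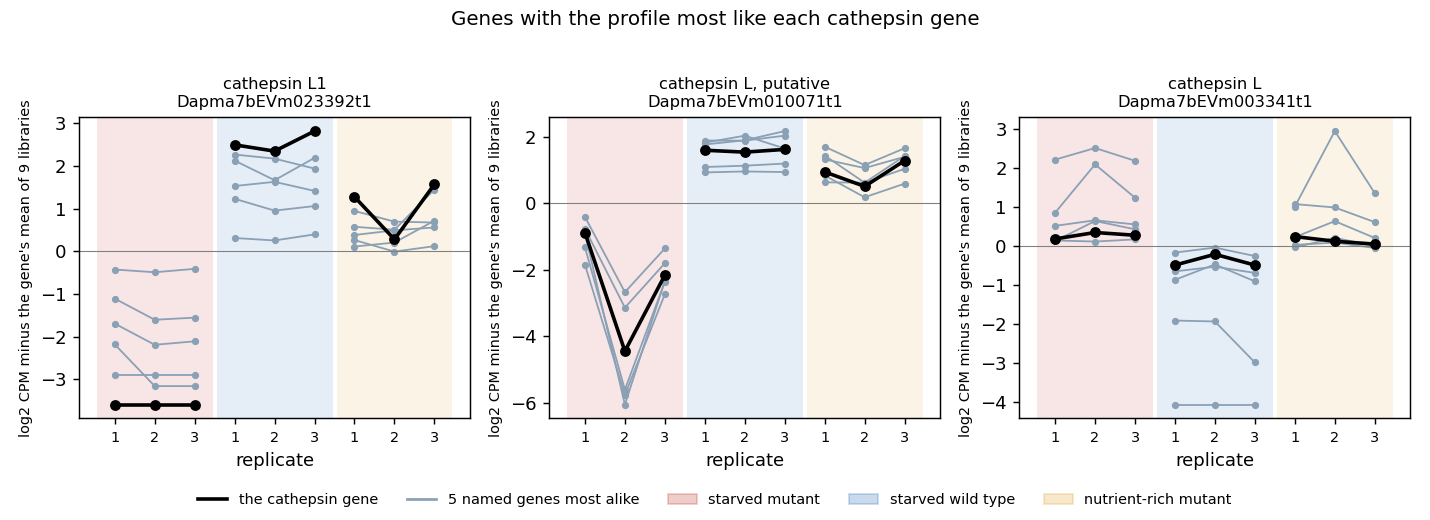
Log2 CPM minus the gene's own mean over 9 libraries (vertical axis) for each cathepsin gene in black and its 5 closest named genes in grey, with libraries by group and replicate on the horizontal axis. Lines only join values of 1 gene within a group. Cathepsin L1 and putative cathepsin L are lowest in the starved mutant, and cathepsin L is lowest in the starved wild type.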

How the data were processed

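RNA-seq of 9 libraries was analysed, 3 per group. According to the methods, the authors aligned reads with CLC Genomics Workbench to the wFleaBase genome of Daphnia magna. They deposited, for 47109 features (17265 named), each feature's raw read count and its RPKM value. The tables of the authors' own fold changes and FDR p-values were not used. Here, edgeR 4.0.16 (R 4.3.3) was run on the counts, with filterByExpr over 3 groups (18675 features), TMM, a quasi-likelihood fit of all 9 libraries by group, and Benjamini-Hochberg adjustment. SE is the absolute log2 fold change over the root of F. Of several features of 1 ID, the one with the highest mean count was used. Log2 CPM for profiles had a prior count of 2. Intervals and floors cover counting error only. Per the labels, daphnids were kept singly and each treatment was carried out 3 times. Counting was not stated to use strand.

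Genes were named by rule: the 3 chosen genes, cathepsin-named genes called or among the 5 highest, up to 4 called inhibitors and 4 called peptidases, and the features most alike. Members and lists were chosen with earlier results of these data known. Alternatives were library totals, DESeq2 1.42.0, limma-voom (limma 3.58.1), every feature with at least 1 count, the 6 libraries compared, a replicate block, leaving out each library, log2 of RPKM plus 0.1 or 1, and Spearman in place of Pearson. The procedure was tested on simulated data. No 2 libraries were duplicates, and 0 per-sample columns were left unused. Replicate numbers did not pair the libraries.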

Additional observations from a re-analysis of the deposited data

How the results depend on the processing

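The direction of cathepsin L1 and of putative cathepsin L in both comparisons, and that of cathepsin L against the starved wild type, was the same under every alternative run. The fitted log2 fold change of cathepsin L1 (−10.14 against the starved wild type and −8.69 against the nutrient-rich mutant) depends on the prior count because 1 group is at 0, and is no bound. Against the starved wild type it was −9.76 with DESeq2, −8.31 with limma-voom, −6.61 with log2 of RPKM + 0.1 and −3.42 with RPKM + 1. Against the nutrient-rich mutant it was −6.80 with limma-voom, −4.79 with RPKM + 0.1 and −1.91 with RPKM + 1. Cathepsin L against the nutrient-rich mutant (0.13) was 0.49 with library totals and 0.53 with both RPKM settings. Leaving out 1 library at a time gave −10.25 to −10.00 and −9.03 to −8.42 for cathepsin L1, −4.88 to −3.08 and −4.24 to −2.44 for putative cathepsin L, and 0.61 to 0.76 and 0.08 to 0.18 for cathepsin L, each against the starved wild type and the nutrient-rich mutant in that order.

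Other cathepsins called higher against the starved wild type numbered 1 in place of 0 with only the 6 libraries compared (Dapma7bEVm007809t1), and 0 to 1 when 1 library was left out. Those called lower numbered 2 to 5 in place of 4. Against the nutrient-rich mutant, those called higher were 2 in place of 1 with library totals and 1 to 1 when 1 library was left out, and those called lower 3 to 4 in place of 3. Replicate numbers were shared by label only (correlations of same-numbered deviations −0.10 to −0.01 against the starved wild type, 0.01 to 0.18 against the nutrient-rich mutant). With a replicate block, the log2 fold changes were −10.16 and −8.63 for cathepsin L1, −3.90 and −3.19 for putative cathepsin L and 0.66 and 0.13 for cathepsin L, and 0 higher and 3 lower, and 1 higher and 3 lower, other cathepsins were called. Dapma7bEVm011016t1 (adjusted p = 0.0896, edgeR) and Dapma7bEVm007573t1 (adjusted p = 0.0621) lost their calls. Over all features the starved comparison gave 546 higher and 791 lower, against 788 and 1329 with DESeq2, 1193 and 1400 with the 6 libraries, 1206 and 1472 without nutrient-rich mutant replicate 2, and 230 and 285 without starved mutant replicate 3. Of the 5 named genes closest to each member, 1 was shared with a Spearman ranking for cathepsin L1, 2 for putative cathepsin L and 1 for cathepsin L. The depth sets a floor of 0.0852 CPM for a group without reads.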
